A study of Mus musculus with 10 samples.

Results

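Fibrillar collagen and fibroblast transcripts were followed in endothelial-enriched cells from B16F10 melanomas, across 6 libraries from mice with Shb inactivated in endothelium and 4 from wild-type mice. The B16F10 line comes from mouse melanoma and forms pigmented tumours. The 10 genes were taken by name: Col1a1, Col1a2, Col3a1, Col5a1, Col6a1, Dcn, Lum, Pdgfra, Postn and Fbln1. All 10 were found among the 28454 gene symbols of every library. The Shb-inactivated mice carried the strain label Shbflox/flox/Cdh5-CreERt2 and the wild-type mice Cdh5-CreERt2, so both groups carried the inducible Cre recombinase driven by the endothelial gene Cdh5, and both were adult. Cells were kept on magnetic columns by CD31, an endothelial surface protein, after cells with the myeloid protein CD11b had been removed. The tissue label is tumours for all 10 libraries, while the source label reads tumours and lungs. Shb encodes an SH2-domain adaptor that acts below VEGF receptor 2, and the comparison asks what its loss changes in tumour vessel cells.

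Fibroblasts build the interstitial matrix of skin and of tumours. They secrete fibrillar collagens of types I, III and V as procollagen chains, which wind into triple helices in the endoplasmic reticulum and assemble into fibrils outside the cell. Collagen VI forms beaded microfibrils between those fibrils, decorin and lumican are small leucine-rich proteoglycans that bind them, periostin is a matricellular protein and fibulin-1 a glycoprotein of elastic fibres and basement membranes. Pdgfra encodes PDGF receptor alpha, a growth factor receptor widely used to mark fibroblasts. Pericytes, the mural cells of capillaries, also make several of these matrix proteins. In bulk RNA, fewer cells of a type and less RNA per cell cannot be told apart.

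The start regions of members that rose and fell together over libraries are printed with that of a member that followed another order. Shown are the 250 bases before a RefSeq start of each gene, in GRCm38.p6, 5′ to 3′ on the gene's strand. Capitals mark matches, on either strand, to the TATA box (letters TATAAA), the CCAAT box and the GC box (letters GGGCGG). Col1a2 lies at chr6:4505368-4505617 on the plus strand, Col3a1 at chr1:45311288-45311537 on the plus strand and Postn at chr3:54360857-54361106 on the plus strand. RefSeq gives Postn another start region, at chr3:54359017-54359266, which held no match to any of the 3 motifs and is not printed.
Col1a2: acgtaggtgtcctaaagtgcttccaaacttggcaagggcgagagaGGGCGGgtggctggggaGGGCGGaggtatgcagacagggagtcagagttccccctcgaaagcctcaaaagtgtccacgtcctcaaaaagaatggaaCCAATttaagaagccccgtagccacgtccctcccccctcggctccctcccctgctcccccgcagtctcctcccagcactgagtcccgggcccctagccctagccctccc
Col3a1: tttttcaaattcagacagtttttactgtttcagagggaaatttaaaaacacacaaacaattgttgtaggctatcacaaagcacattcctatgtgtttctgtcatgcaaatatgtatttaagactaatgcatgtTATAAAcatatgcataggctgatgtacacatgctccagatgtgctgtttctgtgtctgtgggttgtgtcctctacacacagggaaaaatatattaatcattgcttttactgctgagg
Postn: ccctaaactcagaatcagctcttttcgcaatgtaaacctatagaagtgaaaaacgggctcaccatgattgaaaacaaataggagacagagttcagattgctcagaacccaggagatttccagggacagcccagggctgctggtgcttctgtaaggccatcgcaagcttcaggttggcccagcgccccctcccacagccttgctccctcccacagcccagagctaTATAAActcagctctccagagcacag
The Col1a2 region held 1 match to the CCAAT box and 2 to the GC box. The Col3a1 region held 1 TATA box match that began 117 bases before the start, and the Postn region 1 that began 26 bases before it. Of 32851 start regions of the same length, 12.4% held the TATA box letters, 33.8% those of the CCAAT box and 32.7% those of the GC box. The GC content was 62.0% for Col1a2, 35.2% for Col3a1 and 52.0% for Postn, against a median of 52.4% over all start regions. RefSeq start regions were at hand for 7 of the 10 genes, not for Col1a1, Dcn and Lum.

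Values are FPKM, fragment counts scaled to transcript length and to the mapped fragments of the library, which allows levels to be set side by side between genes. FPKM summed to 477329 to 576687 per library, and sequencing depth cannot be read from them. Among olfactory, vomeronasal and taste receptor genes the commonest value just above 0, which hints at the worth of a single fragment, was 0.07 FPKM in Shb-inactivated replicate 2, 0.1 in wild-type replicate 1 and 0.01 to 0.03 elsewhere. Shb averaged 0.942 ± 0.414 FPKM in Shb-inactivated libraries (SD, n = 6) and 3.68 ± 1.19 FPKM in wild-type libraries (SD, n = 4), and no library overlapped the other group. Shb-inactivated replicates 3 and 4 and wild-type replicate 3 were rich in macrophage and monocyte transcripts: the 12 markers summed to 4894, 4247 and 6673 FPKM there, and to 45.5 to 69.2 FPKM in the other Shb-inactivated and 46.1 to 610 FPKM in the other wild-type libraries. Shb-inactivated replicates 1 and 2 and wild-type replicate 1 were low in small nucleolar RNAs. The 12 endothelial markers, led by Pecam1 and Egfl7, summed to 3342 to 4643 FPKM in Shb-inactivated and 2849 to 3724 FPKM in wild-type libraries. The macrophage and monocyte list was led by Lyz2 and C1qa. Markers of keratinocytes summed to at most 2.9 FPKM, of skeletal muscle to at most 2.54 FPKM and of adipocytes to at most 0.3 FPKM in any library. Schwann cell markers, led by Pmp22 and Mbp, summed to 21.7 to 127 FPKM in Shb-inactivated and 26.4 to 113 FPKM in wild-type libraries, highest in the 3 myeloid-rich ones.

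None of the 10 genes differed between Shb-inactivated and wild-type libraries beyond the spread between replicates. The filter of at least 1 FPKM in at least 4 libraries kept 8 of the 10, and Lum and Pdgfra, above 1 FPKM in 1 and 2 libraries, were below it. By limma with Benjamini-Hochberg adjustment over 12805 genes, 0 of the 8 passed an adjusted p of 0.05, against 0% of all genes tested. Shb itself did not pass either, with a log2 fold change of -1.27, an unadjusted limma p of 9.74e-05 and an adjusted p of 0.989. A count of 0 at this threshold therefore does not show that the 8 genes were unchanged. Unadjusted p was under 0.05 for 0 of the 8 and for 442 of all genes (3.45%). It was under 0.05 for 4 of the 8 and 596 of all genes with the macrophage score as a covariate, and for 4 of the 8 and 303 of all genes with a replicate block, where again 0 passed the adjusted threshold. The exact permutation test over 210 splits gave no member a p under 0.05. Each log2 fold change below is the Shb-inactivated mean minus the wild-type mean of log2(FPKM + 1), a scale that compresses the changes of low genes. Of the 8 genes, 6 had a fold change below 0, against 48.8% of all genes, and their median was -0.62, against 0.01 for all genes. That median was -0.20 without Shb-inactivated replicate 3, -0.40 without wild-type replicate 1 and -0.99 without wild-type replicate 3. Marker lists of other cells also lay to 1 side: melanoma markers had 9 of 9 fold changes below 0 (median -1.57) and macrophage and monocyte markers 12 of 12 below 0 (median -0.93). Endothelial markers had 12 of 12 above 0 (median 0.34) and pericyte and smooth muscle markers 11 of 11 above 0 (median 0.26). None of these genes passed the threshold, and their part in the median of the 8 genes was not tested. In none of the 10 genes did the groups separate without overlap, which 0.718% of all genes tested did. The summed level of the 10 genes was 30.3 to 569 FPKM in Shb-inactivated and 109 to 450 FPKM in wild-type libraries, and the Shb-inactivated range enclosed the wild-type range.

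**Figure D1:**
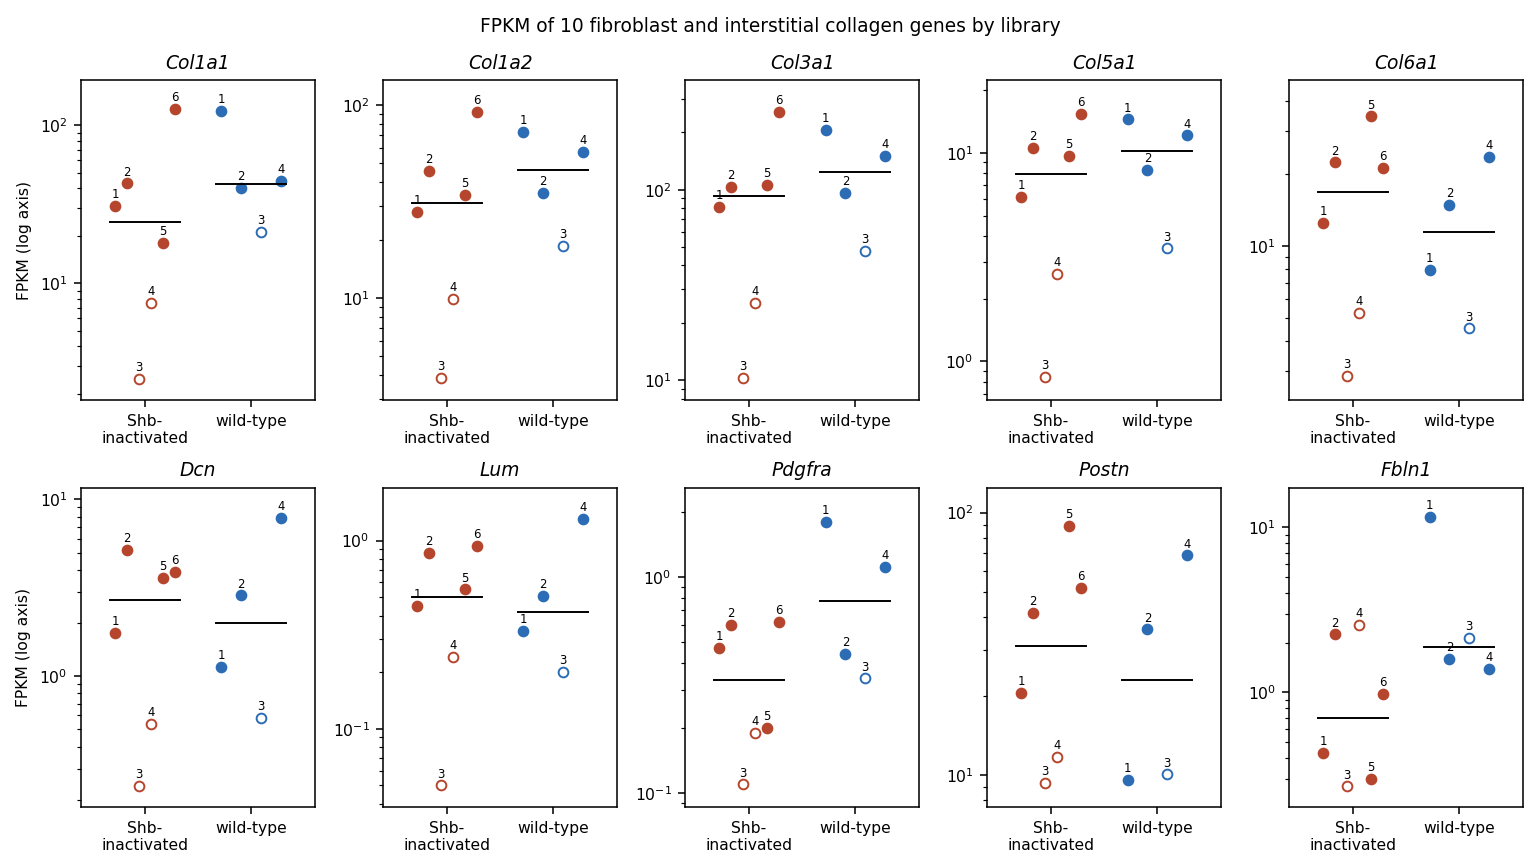
FPKM of each of the 10 genes by library on log axes, Shb-inactivated on the left and wild-type on the right; numbers are replicates, bars are medians, and open circles are the 3 libraries rich in macrophage and monocyte transcripts. Col1a1 spans 2.47 to 126.92 FPKM in Shb-inactivated and 21.25 to 123.49 FPKM in wild-type libraries, and the open circles lie low in all panels but that of Fbln1.

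Type I collagen is the main fibril of skin and tumour stroma. Its genes lay at the 93.4th (Col1a1) and 92.3th (Col1a2) percentile of all genes by mean FPKM. Both ranged more widely over the 6 Shb-inactivated than over the 4 wild-type libraries, but a range tends to grow with the number of libraries. The lowest values, in Shb-inactivated replicates 3 and 4, were from myeloid-rich libraries. Without the 3 such libraries Col1a1 ran from 17.96 to 126.92 FPKM in Shb-inactivated and from 40.43 to 123.49 FPKM in wild-type libraries. Col1a1, which encodes the alpha 1 chain (chromosome 11, 94936224 to 94953042, GRCm38), had 2.47 FPKM at the lowest, a median of 24.5 and 126.92 at the highest in Shb-inactivated libraries, against 123.49, 40.43, 21.25 and 44.46 FPKM in wild-type replicates 1 to 4. The highest Shb-inactivated library thus exceeded every wild-type one and the lowest, replicate 3, lay below all of them. Col1a1 had a log2 fold change of -1.15 (SE 0.90, 95% interval -3.13 to 0.84; limma adjusted p 0.989; exact permutation p = 0.281). Col1a2, which encodes the alpha 2 chain (chromosome 6, 4504814 to 4541544), had 3.86 FPKM at the lowest, a median of 31.2 and 91.66 at the highest in Shb-inactivated libraries, against 72.53, 34.94, 18.56 and 57.08 FPKM in wild-type replicates 1 to 4. The groups overlapped over the whole wild-type range, with a log2 fold change of -0.74 (SE 0.75; limma adjusted p 0.989; exact permutation p = 0.414). Leaving out Shb-inactivated replicate 3 gave -0.62 for Col1a1 and -0.27 for Col1a2, and leaving out wild-type replicate 1 gave -0.69 for Col1a1 and -0.47 for Col1a2.

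Both chains join in the type I collagen heterotrimer, and their ratio within a library does not depend on the scaling of that library. The Col1a1 to Col1a2 ratio of FPKM was 1.10, 0.945, 0.640, 0.754, 0.523 and 1.38 in Shb-inactivated replicates 1 to 6 and 1.70, 1.16, 1.14 and 0.779 in wild-type replicates 1 to 4. It averaged 0.892 ± 0.319 in Shb-inactivated libraries (SD, n = 6) and 1.20 ± 0.381 in wild-type libraries (SD, n = 4). The difference in mean log2 ratio was -0.45 (exact permutation p = 0.176, two-sided), within the spread between replicates.

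Collagen III and V, the partners of collagen I in mixed fibrils, had a similar order of libraries, with Shb-inactivated replicate 6 highest, wild-type replicate 1 next and Shb-inactivated replicate 3 lowest. Col3a1, which encodes the only chain of collagen III (chromosome 1, 45311538 to 45349706), was the highest of the 10 genes, at the 97.4th percentile of all genes by mean FPKM. It had 10.26 FPKM at the lowest, a median of 92.35 and 256.12 at the highest in Shb-inactivated libraries, against 207.06, 96.11, 47.58 and 151.23 FPKM in wild-type replicates 1 to 4. Its extremes in both directions were Shb-inactivated libraries, and the log2 fold change was -0.78 (SE 0.79; limma adjusted p 0.989; exact permutation p = 0.414). Without Shb-inactivated replicate 3 it was -0.28, and without wild-type replicate 1 it was -0.48. Col5a1, a chain of collagen V, which regulates fibril diameter (chromosome 2, 27886425 to 28039514), had 0.84 FPKM at the lowest, a median of 7.935 and 15.40 at the highest in Shb-inactivated libraries, against 14.46, 8.26, 3.48 and 12.11 FPKM in wild-type replicates 1 to 4. Again the groups overlapped (log2 fold change -0.50, SE 0.60; limma adjusted p 0.989; exact permutation p = 0.490), and the fold change was -0.12 without Shb-inactivated replicate 3 and -0.27 without wild-type replicate 1. Exons of Col5a1 overlap those of 2 annotated transcripts on the other strand, and whether the authors' counting used strand is not given in the sources used here.

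**Figure D2:**
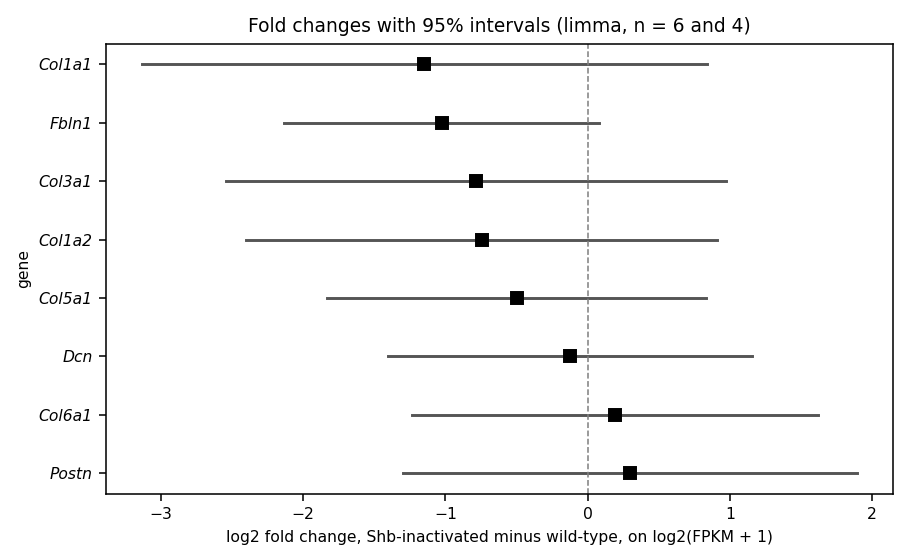
Log2 fold changes, Shb-inactivated minus wild-type on log2(FPKM + 1), of the 8 genes above the filter, with 95% intervals from limma (n = 6 and 4). Every interval crosses 0, from that of Col1a1 (-3.13 to 0.84) to that of Postn (-1.30 to 1.90).

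Collagen VI and periostin differed from the fibrillar collagens in which libraries were high. Col6a1, 1 of the chains of the microfibril (chromosome 10, 76708792 to 76726168, minus strand), had 2.87 FPKM at the lowest, a median of 16.8 and 34.61 at the highest in Shb-inactivated libraries, against 7.93, 14.84, 4.53 and 23.57 FPKM in wild-type replicates 1 to 4. The highest library was Shb-inactivated replicate 5, and wild-type replicate 1, rich in collagen I, was low. The log2 fold change was 0.19 (SE 0.64; limma adjusted p 0.995; exact permutation p = 0.814), and its sign turned without Shb-inactivated replicate 5 (-0.085) or wild-type replicate 3 (-0.17). Postn (chromosome 3, 54361109 to 54391037) had 9.36 FPKM at the lowest, a median of 30.9 and 88.91 at the highest in Shb-inactivated libraries, against 9.57, 35.86, 10.06 and 68.69 FPKM in wild-type replicates 1 to 4. Shb-inactivated replicate 5 was again the highest, and the log2 fold change was 0.30 (SE 0.72; limma adjusted p 0.992; exact permutation p = 0.714), with the sign turned without Shb-inactivated replicate 5 (-0.031), wild-type replicate 1 (-0.084) or wild-type replicate 3 (-0.062). The Postn to Col1a1 ratio of FPKM ran over a 63.9-fold range, from 0.0775 in wild-type replicate 1 to 4.95 in Shb-inactivated replicate 5. Shb-inactivated libraries held ratios of 0.406 to 4.95 and wild-type libraries 0.0775 to 1.54, whereas the Col1a1 to Col1a2 ratio had a range of 3.26-fold. These wider ratios were chosen after the values were seen.

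**Figure D3:**
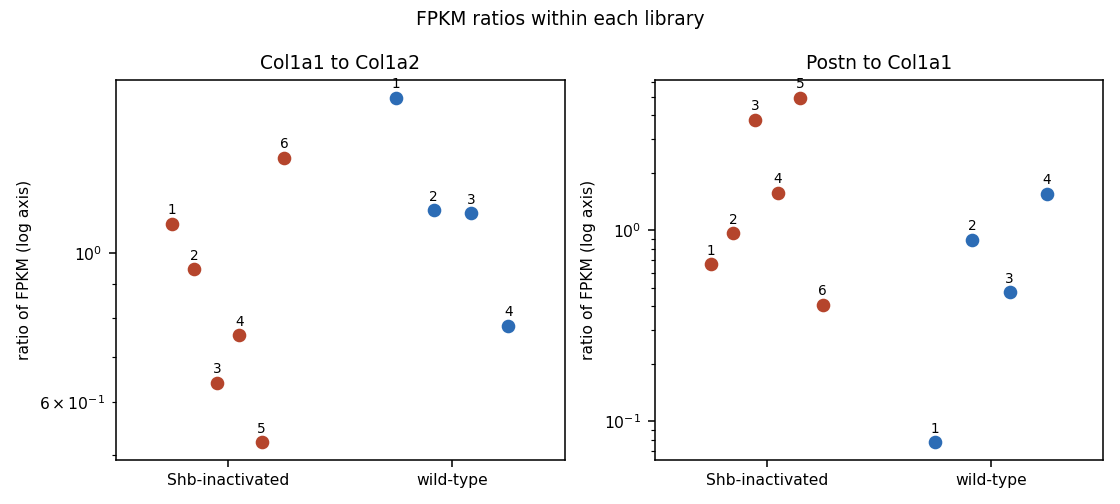
Ratios of FPKM within each library on log axes for Col1a1 to Col1a2 (left) and Postn to Col1a1 (right), Shb-inactivated before wild-type, with replicate numbers. The chains of collagen I stay between 0.523 and 1.70, while Postn to Col1a1 spreads over 0.0775 to 4.95.

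The small proteoglycans were low. Dcn, which encodes decorin, had 0.24 FPKM at the lowest, a median of 2.685 and 5.16 at the highest in Shb-inactivated libraries, against 1.13, 2.87, 0.58 and 7.83 FPKM in wild-type replicates 1 to 4. Lum, which encodes lumican and lies 47.0 kb from Dcn on chromosome 10, had 0.05 FPKM at the lowest, a median of 0.50 and 0.94 at the highest in Shb-inactivated libraries, against 0.33, 0.51, 0.20 and 1.30 FPKM in wild-type replicates 1 to 4. Wild-type replicate 4 was the highest and Shb-inactivated replicate 3 the lowest for both, and Dcn was 2.25 to 6.56 times the level of Lum in every library. The Dcn log2 fold change was -0.12 (SE 0.58; limma adjusted p 0.996; exact permutation p = 0.824), and its sign turned under quantile normalization (0.055) and without wild-type replicate 4 (0.35), Shb-inactivated replicate 3 (0.13) or Shb-inactivated replicate 4 (0.068). Lum differed by -0.051 in mean log2(FPKM + 1) (exact permutation p = 0.852), and its sign turned without wild-type replicate 4 (0.14), Shb-inactivated replicate 3 (0.048) or Shb-inactivated replicate 4 (0.00035).

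Pdgfra and Fbln1 were the pair with the lowest permutation p of the 10. Pdgfra had 0.11 FPKM at the lowest, a median of 0.335 and 0.62 at the highest in Shb-inactivated libraries, against 1.80, 0.44, 0.34 and 1.11 FPKM in wild-type replicates 1 to 4. The groups overlapped at 0.34 to 0.62 FPKM, and the difference in mean log2(FPKM + 1) was -0.45 (exact permutation p = 0.0857). Without wild-type replicate 1 it was -0.24. Exons of Pdgfra overlap 3 other annotated transcripts, and the gene lay at the 50.1th percentile of mean FPKM. Fbln1 (chromosome 15, 85205949 to 85286535) had 0.27 FPKM at the lowest, a median of 0.705 and 2.57 at the highest in Shb-inactivated libraries, against 11.55, 1.6, 2.15 and 1.39 FPKM in wild-type replicates 1 to 4. Shb-inactivated replicates 2 and 4 lay above the lowest wild-type library, and wild-type replicate 1 far above all others. Fbln1 had a log2 fold change of -1.02 (SE 0.50, 95% interval -2.13 to 0.08; limma adjusted p 0.989; exact permutation p = 0.0905), and -0.47 without wild-type replicate 1. Adding the melanoma marker score to the fit gave -0.17.

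Most of the 10 genes were low in the 3 libraries rich in macrophage and monocyte transcripts, and Fbln1 was an exception, second highest of all libraries in Shb-inactivated replicate 4. Shb-inactivated replicate 3 was the lowest library for all 10 genes. Shb-inactivated replicate 4 was among the lowest 3 for 8 genes and wild-type replicate 3 for 7. Without these 3 libraries Col1a1 averaged 54.7 FPKM in Shb-inactivated and 69.5 FPKM in wild-type libraries. Col3a1 then averaged 137 FPKM in Shb-inactivated and 151 FPKM in wild-type libraries, and Col6a1 22.6 FPKM in Shb-inactivated and 15.4 FPKM in wild-type libraries. Fbln1 averaged 0.99 FPKM in Shb-inactivated and 4.85 FPKM in wild-type libraries, and the median log2 fold change of the 8 genes was -0.20. With all 10 libraries kept and the macrophage score as a covariate, that median was instead -0.89, against -0.62 without the covariate. Whether the myeloid share of a library sets the levels of the 10 genes was not tested.

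**Figure D4:**
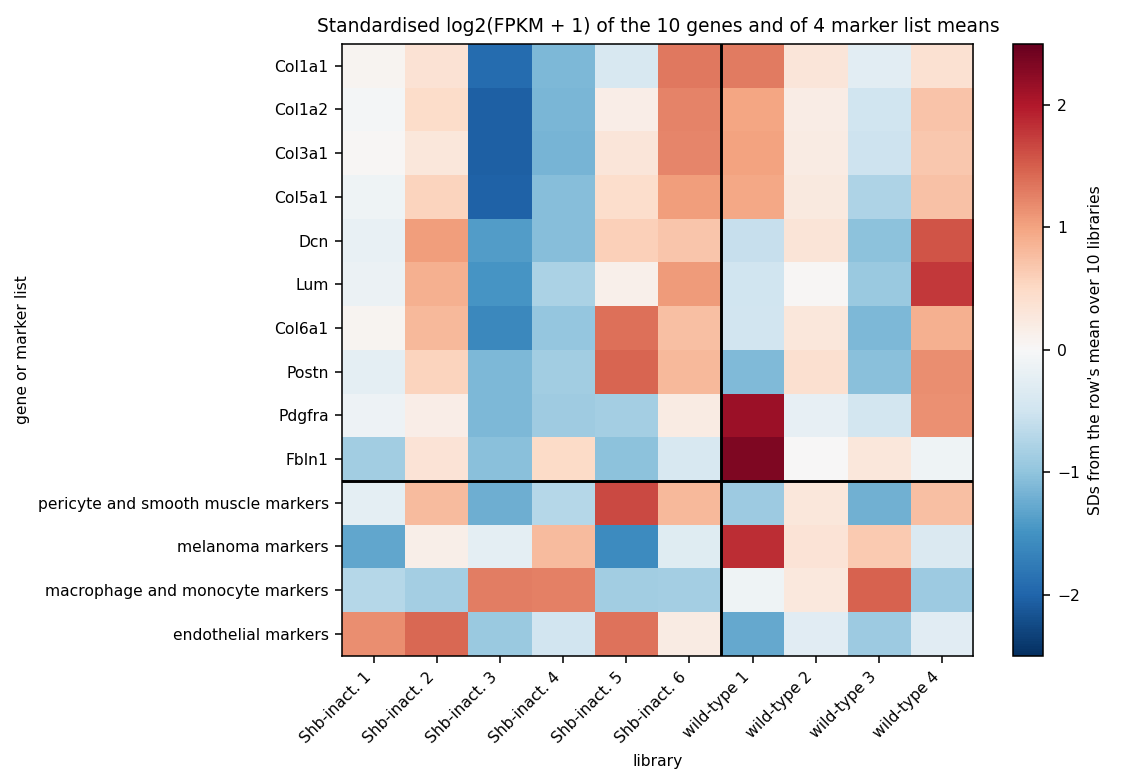
Standardised log2(FPKM + 1) of the 10 genes and of the means of 4 marker lists (rows) in each library (columns, Shb-inactivated left of the line, wild-type right); red is above and blue below the row's mean over 10 libraries. Shb-inactivated replicate 3 is the lowest library in all 10 gene rows, and wild-type replicate 1 is highest for Fbln1 and Pdgfra and for melanoma markers, but low for Postn.

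Within the 7 libraries that were not rich in myeloid transcripts, a subset chosen after the values were seen, some of the genes moved together. Of 75 relations computed, 45 between the genes and 30 with the endothelial, pericyte and melanoma scores, 8 had a Pearson adjusted p under 0.05 and 5 a Spearman adjusted p under 0.05 by exact permutation. The relations pooled both groups, so a difference between groups shared by both sides also enters r and its p. Where r is given without the 2 farthest libraries, those lay farthest from the median of the gene, the first-named of a pair. Libraries extreme only in the other gene or in a score stayed in. Col1a2 followed Col3a1 (Pearson r = 0.98, exact permutation p = 0.000794, adjusted 0.0149; Spearman rho = 0.89, p = 0.0123, adjusted 0.103; r = 0.94 without the 2 farthest libraries) and Col5a1 (r = 0.96, exact permutation p = 0.00139, adjusted 0.0149; rho = 0.96, p = 0.00278, adjusted 0.0417; r = 0.96 without the 2 farthest). Dcn followed Lum (r = 0.93, exact permutation p = 0.00198, adjusted 0.0186; rho = 0.96, p = 0.00278, adjusted 0.0417; r = 0.80 without the 2 farthest). Col6a1 followed Postn (r = 0.97, exact permutation p = 0.000397, adjusted 0.0149; rho = 0.96, p = 0.00278, adjusted 0.0417; r = 0.90 without the 2 farthest). The relation of Col1a2 with Postn was not past the threshold (r = -0.10, exact permutation p = 0.830, adjusted 0.902; rho = 0.00, p = 1.000, adjusted 1; r = -0.66 without the 2 farthest).

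Levels of Postn and Col6a1 moved with transcripts of pericytes and smooth muscle, and Fbln1 with those of melanoma. The pericyte score is the mean log2(FPKM + 1) of 12 markers led by Rgs5 and Abcc9, all above 0 in every library and summing to 145 to 754 FPKM in Shb-inactivated and 118 to 359 FPKM in wild-type libraries. Over the 7 libraries it followed Col6a1 (r = 0.99, exact permutation p = 0.00119, adjusted 0.0149; rho = 0.86, p = 0.0238, adjusted 0.162; r = 0.97 without the 2 farthest) and Postn (r = 0.97, exact permutation p = 0.000992, adjusted 0.0149; rho = 0.89, p = 0.0123, adjusted 0.103; r = 0.90 without the 2 farthest). Postn also kept a ratio to Rgs5 of 0.321 to 0.656 in all 10 libraries, the narrowest range of the ratios computed. That ratio, too, was chosen after the values were seen. For Col1a1 the relation with the pericyte score was not past the threshold (r = -0.52, exact permutation p = 0.218, adjusted 0.390; rho = -0.14, p = 0.783, adjusted 0.876; r = -0.53 without the 2 farthest). The melanoma score, from 9 markers led by Dct and Tyrp1 that summed to 14.3 to 440 FPKM in Shb-inactivated and 97.6 to 1272 FPKM in wild-type libraries, followed Fbln1 (r = 0.96, exact permutation p = 0.00139, adjusted 0.0149; rho = 0.93, p = 0.00675, adjusted 0.0843; r = 0.90 without the 2 farthest). Fbln1 and all 9 melanoma markers had fold changes below 0, and that shared direction between groups was not separated from the relation. The relations with the pericyte and melanoma scores passed the adjusted threshold by Pearson and not by Spearman correlation, as did that of Col1a2 with Col3a1. Col3a1 with Col5a1 passed by both (r = 0.94, exact permutation p = 0.00139, adjusted 0.0149; rho = 0.96, p = 0.00278, adjusted 0.0417; r = 0.90 without the 2 farthest). Col1a1 with Col1a2 passed by Spearman only (r = 0.88, exact permutation p = 0.00694, adjusted 0.0579; rho = 0.96, p = 0.00278, adjusted 0.0417), and r was 0.55 without the 2 farthest libraries. The part of these cells in the levels of the 10 genes was not tested.

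**Figure D5:**
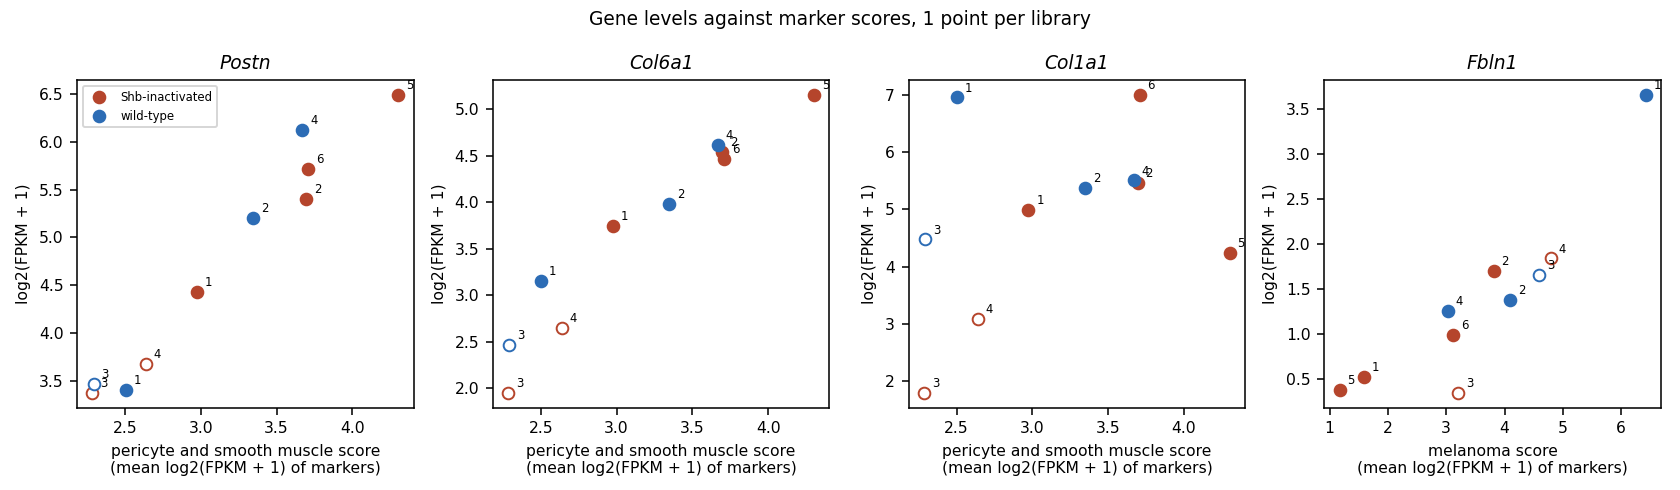
Log2(FPKM + 1) of Postn, Col6a1, Col1a1 and Fbln1 (vertical) against a marker score, the mean log2(FPKM + 1) of the pericyte and smooth muscle list or, for Fbln1, of the melanoma list (horizontal); 1 point per library, open for the 3 libraries rich in myeloid transcripts. Postn and Col6a1 climb with the pericyte score in both groups, Col1a1 has its highest values at scores of 3.71 and 2.5, and Fbln1 is highest in wild-type replicate 1, at a melanoma score of 6.42.

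Other collagen chains varied more between libraries at the median than the genes that process collagen, with overlapping ranges. Of 32 listed genes 31 were found and 26 tested, and 0 passed the limma threshold, with 12 fold changes below 0, 14 above 0 and a median of 0.06. The 9 further chains ranged over a median of 10.95-fold between the lowest and the highest library, and the 17 processing genes over 1.79-fold. Single chains ran from 5.14-fold to 112-fold, the widest being Col2a1, which averaged only 0.843 FPKM. Single processing genes ran from 1.33-fold to 23.4-fold. Lox (23.4-fold), Adamts2 (14.3-fold) and Loxl2 (9.15-fold), named here for their range and low in FPKM, lay within the range of the chains. Serpinh1, the collagen chaperone HSP47, averaged 556 ± 55.6 FPKM in Shb-inactivated libraries (SD, n = 6) and 499 ± 114 FPKM in wild-type libraries (SD, n = 4), with a log2 fold change of 0.18 (limma adjusted p 0.989). P4hb, a subunit of prolyl 4-hydroxylase, averaged 370 ± 27.2 FPKM in Shb-inactivated and 358 ± 54.5 FPKM in wild-type libraries. Ppib, a prolyl isomerase of the endoplasmic reticulum, averaged 222 ± 28.6 FPKM in Shb-inactivated and 192 ± 42.5 FPKM in wild-type libraries. Plod1, a lysyl hydroxylase, averaged 144 ± 23.3 FPKM in Shb-inactivated and 122 ± 8.70 FPKM in wild-type libraries. Of the 17 processing genes 11 differed less than 2-fold between the lowest and the highest library, where Col1a1 differed 51.4-fold. Col6a3, chosen after its values were seen as the partner chain of Col6a1, had 20.77, 36.08, 6.78, 10.28, 74.26 and 43.44 FPKM in Shb-inactivated replicates 1 to 6 and 15.37, 27.36, 7.55 and 38.72 FPKM in wild-type replicates 1 to 4, again highest in Shb-inactivated replicate 5.

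Other fibroblast and matrix genes likewise gave no call. Of 40 listed genes 39 were found and 21 tested, and 0 passed, with 9 fold changes below 0, 12 above 0 and a median of 0.11. Sparc, a collagen-binding matricellular protein also made by endothelium, averaged 2413 ± 380.1 FPKM in Shb-inactivated libraries (SD, n = 6) and 1823 ± 423 FPKM in wild-type libraries (SD, n = 4), with a log2 fold change of 0.42 (limma adjusted p 0.989; exact permutation p = 0.0286). Fstl1, a secreted glycoprotein, averaged 149 ± 28.9 FPKM in Shb-inactivated and 115 ± 34.4 FPKM in wild-type libraries. Fn1, fibronectin, averaged 92.3 ± 77.5 FPKM in Shb-inactivated and 111 ± 20.1 FPKM in wild-type libraries. Fbln2, fibulin-2, averaged 49.2 ± 9.54 FPKM in Shb-inactivated and 36.4 ± 25.3 FPKM in wild-type libraries. Of these 4 genes, Sparc, Fstl1 (0.41) and Fbln2 (0.60) had log2 fold changes above 0. That of Fn1 was below 0 (-0.59), as were those of the fibrillar collagens, none past the threshold.

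The genes whose pattern was most like the mean of the 10 standardised genes over the 10 libraries were searched among 8648 others with a mean of at least 5 FPKM. They were Fbn1, the fibrillin of microfibrils (Pearson r 0.97 over 10 libraries and 0.82 over the 7 not rich in myeloid transcripts), Col5a3 (0.95 and 0.67), Edrf1 (0.93 and 0.75), Gramd4 (0.93 and 0.57), Col5a2 (0.91 and 0.54) and Angptl2 (0.91 and 0.60). These values rank genes chosen for their likeness and carry no test. Among the 10 genes themselves, r with that mean ran from 0.30 for Fbln1 and 0.68 for Postn to 0.98 for Col1a2 and 0.99 for Col5a1. Fbln1 thus shared the least of the common pattern. Each of the 10 is part of that mean, which raises its r, so these values cannot be set against those of the genes above.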

How the data were processed

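RNA from 10 libraries of CD31-selected tumour cells was compared, 6 Shb-inactivated and 4 wild-type, grouped by their titles. The authors deposited FPKM per gene symbol with a decimal comma, made with TopHat2 2.1.1 and Cufflinks 2.2.1 on GRCm38, per the submitters' processing notes; the sources used here name neither the annotation nor the strand setting. Libraries were prepared with a stranded total RNA kit after ribosomal RNA removal, per the labels' protocols. FPKM keeps no read totals, so no counting interval is given.

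Genes that reached 1 FPKM in 4 or more libraries were tested on log2(FPKM + 1) with limma 3.58.1 in R 4.3.3 (mean-variance trend, no covariate, two-sided, Benjamini-Hochberg over 12805 genes, threshold 0.05). Single genes and ratios were tested by exact permutation over 210 splits, smallest p 0.00476. Nothing says whether mice were processed separately, so p-values cover only the spread among these libraries, which may be technical. The limma step was tested on simulated data. Positions are from GENCODE vM21, and sequences from RefSeq. The genes, marker lists and tests were chosen with earlier results of these data known. Named genes were the 10 genes, Shb, the 4 highest of each other list, the 2 highest of a marker list and 6 by likeness; exceptions are stated. Alternatives changed the pseudocount, filter, scaling, weights, covariates, block and libraries. A marker score is the mean log2(FPKM + 1) of the list's genes found. Plots used matplotlib.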

Additional observations from a re-analysis of the deposited data

Results flagged for a closer look

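Fbln1 in wild-type replicate 1, at 11.55 FPKM, stood apart from the other wild-type libraries, which had 1.39 to 2.15 FPKM: the gap was 0.834 of the group's range in log2(FPKM + 1). Of the 20 combinations of gene and group examined, this was the 1 that passed, and chance flags about 1 in 20. The same library had the highest melanoma marker sum, 1272 FPKM, and the coarsest low values; the part of either in the Fbln1 value was not tested.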

How the results depend on the processing

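The count of members past the threshold was 0 under all 24 alternatives run. The count over all genes was 0 under 23 of them and 1 with library quality weights. The direction stayed below 0 for Col1a1, Col1a2, Col3a1, Col5a1 and Fbln1 wherever they were fitted, with log2 fold changes of -1.74 to -0.52 for Col1a1. It turned for Col6a1, Postn, Dcn and Lum. Col6a1 was -0.29 with library quality weights, -0.10 with the macrophage score, -0.51 with the melanoma score, -0.28 with the pericyte score and -0.13 without the 3 libraries low in small nucleolar RNAs. For Postn the weights gave -0.40, the melanoma score -0.65, the pericyte score -0.24 and the fit without those 3 libraries -0.12. Dcn was 0.055 under quantile normalization and 0.084 when the 3 myeloid-rich libraries were left out, which gave 0.019 for Lum. Leaving out each library in turn gave -0.17 to 0.55 for Col6a1, -0.48 to 0.35 for Dcn, -0.17 to 0.14 for Lum and -0.084 to 0.82 for Postn. It gave -1.66 to -0.62 for Col1a1, -1.12 to -0.27 for Col1a2, -1.18 to -0.28 for Col3a1, -0.86 to -0.12 for Col5a1 and -0.60 to -0.24 for Pdgfra, -0.99 to -0.20 for the median of the genes and -0.63 to -0.26 for the log2 ratio of Col1a1 to Col1a2. Pdgfra differed by -1.04 with a pseudocount of 0.1 and by -0.14 with a pseudocount of 5. The median of the genes was -0.89 with the macrophage or the pericyte score, -0.70 with the melanoma score and -0.93 with the replicate block. It was -0.42 with library quality weights, -0.37 with a pseudocount of 5 and -0.20 without the 3 myeloid-rich libraries. The causes were not tested. Shared replicate numbers gave no clear pairing of the libraries: deviations of same-numbered libraries correlated at 0.44, -0.32, 0.71 and -0.55, and no wild-type library matched its own number best. Wild-type replicate 3 matched Shb-inactivated replicate 4 best (0.75), and both were rich in myeloid transcripts. Cell content and pairing cannot be told apart by these correlations. With the replicate block 0 genes passed, Col6a1 was -0.34, Postn -0.33 and the ratio -0.45. Unadjusted limma p was then under 0.05 for 4 of the 8 members and 303 of 12805 genes. With the macrophage score it was so for 4 members and 596 genes. Upper quartile scaling, or leaving out Shb-inactivated replicate 2 or 4 or wild-type replicate 4, each gave 1 member under 0.05, beside 405 to 669 of all genes. No member was listed at 0, so that alternative was not run.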
